A study of Mus musculus with 6 samples.

Results

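MicroRNA loci that gave signal above a set level were examined in long-term hematopoietic stem cells (LT-HSCs), the rare bone marrow cells that rebuild all blood lineages. A locus was a probe set for which every gene symbol of the platform annotation named a microRNA and none named its host transcript, and it was kept where its mean over all 6 arrays was 7.0 or more on the deposited log2 scale. This took 107 of 326 microRNA probe sets, among 23410 probe sets with a gene symbol and 35557 in all, and left 219 microRNA probe sets below 7.0. A further 40 probe sets paired a microRNA with another gene or stood for a host gene and were not counted. The loci were thus chosen by their mean level, so their levels are given as a description, while the difference between genotypes was not used to choose them.

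The Lxn-/- cells came from female C57BL/6 mice, 8 to 12 weeks old, that carry a deletion of exons 2 to 4 of latexin and lack its protein, and the WT cells came from female C57BL/6 mice of the same age with an intact gene. Latexin is an inhibitor of metallocarboxypeptidases. Each of the 3 arrays per genotype held 1 biological sample of about 100000 cells pooled from 10 to 20 mice, so that the spread is between pools, and all cells were sorted from bone marrow through the same gate (lineage-negative, Sca1+, c-Kit+, CD34- and negative for a marker that the design text spells Flt2). Total RNA, 100 ng per array, was hybridised as biotin-labelled cRNA to Affymetrix MoGene-1-0-st-v1 arrays.

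MicroRNAs are cut from hairpins in longer transcripts. Drosha and Dgcr8 release the hairpin in the nucleus, Xpo5 exports it, Dicer1 trims it, and an Argonaute protein loads one arm, which finds messenger RNAs mainly through its seed, bases 2 to 8. Many hairpins lie in clusters that share a transcript or inside a host gene, and blood cells use several families of them (miR-17, miR-181, miR-142, miR-155, let-7) to tune proliferation and lineage choice. Probes that lie on a hairpin cannot tell primary transcript, precursor and mature microRNA apart, and the spin columns of the standard kit named in the labels retain little RNA as short as a mature microRNA. All values below are therefore signals of microRNA loci, not amounts of mature microRNA.

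Of the 107 loci, 36 lay in 10 groups, each a cluster or a shared host gene, and 71 shared no group with another of them. Some of the 71 lie beside a microRNA that fell below 7.0, such as Mir181b-1 beside Mir181a-1. Hairpin sequences of 90 loci were found in RefSeq (assembly GRCm38.p6), and 17 had none in the table used. The mature sequences of the loci on which the comparison turns are shown with the seed in capitals, because several of these loci differ in position but share a seed. The first 4 come from the Mir17 cluster on chromosome 14 (plus strand, miR-17-5p at chr14:115043684-115043706), and the next 3 from the Mcm7 cluster on chromosome 5 (minus strand, miR-106b-5p at chr5:138165787-138165807).
miR-17-5p: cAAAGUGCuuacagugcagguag
miR-18a-5p: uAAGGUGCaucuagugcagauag
miR-20a-5p: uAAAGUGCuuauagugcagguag
miR-19b-3p: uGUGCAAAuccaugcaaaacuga
miR-106b-5p: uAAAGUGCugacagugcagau
miR-93-5p: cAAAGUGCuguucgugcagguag
miR-25-3p: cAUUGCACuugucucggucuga
The seed of miR-17-5p, miR-20a-5p, miR-106b-5p and miR-93-5p was the same run of bases, AAAGUGC, although the first pair and the second pair lie on different chromosomes. The Mir23a cluster on chromosome 8 (plus strand, miR-23a-3p at chr8:84208563-84208583) gives 3 different seeds from neighbouring hairpins.
miR-23a-3p: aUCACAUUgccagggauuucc
miR-27a-3p: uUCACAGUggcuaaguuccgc
miR-24-3p: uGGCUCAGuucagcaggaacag
The let-7 and miR-181 families show the reverse, a shared seed (GAGGUAG and ACAUUCA) from loci on several chromosomes, and the same miR-181b-5p is cut from Mir181b-1 on chromosome 1 and from Mir181b-2 on chromosome 2.
let-7d-5p: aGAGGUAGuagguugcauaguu
let-7e-5p: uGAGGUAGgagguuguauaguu
let-7i-5p: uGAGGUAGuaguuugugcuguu
miR-181a-5p: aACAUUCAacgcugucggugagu
miR-181b-5p: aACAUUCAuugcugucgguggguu
miR-181d-5p: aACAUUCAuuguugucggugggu
Mir142, Mir155 and Mir30e lay outside the groups of loci and were among those of lowest p. Mir142 is on chromosome 11 (plus strand, miR-142a-3p at chr11:87756903-87756925), Mir155 on chromosome 16 (plus strand, miR-155-5p at chr16:84714143-84714165) and Mir30e on chromosome 4 (minus strand, miR-30e-5p at chr4:120772660-120772681).
miR-142a-3p: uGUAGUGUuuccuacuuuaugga
miR-155-5p: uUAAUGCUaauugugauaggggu
miR-30e-5p: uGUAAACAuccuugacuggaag

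The targeted gene and the sorted cells were checked first. Lxn gave 8.66, 8.78 and 8.78 in the Lxn-/- pools, against 8.99, 9.09 and 9.55 in the WT pools. The genotypes did not overlap, and the Lxn-/- mean was lower by 0.47 (limma, SE 0.14, adjusted p = 0.993), which did not pass the threshold of 0.05 on the adjusted p. Where its probes lie relative to the deleted exons was not stated. Of 15 LT-HSC markers, 13 were measured, at means of 7.65 to 12.87, led by Kit, Meis1 and Hlf, and none differed at an unadjusted p under 0.05. Cd34 averaged 13.18 ± 0.15 in Lxn-/- pools and 13.12 ± 0.04 in WT pools (SD, n = 3 each), and Flt3 11.99 ± 0.35 in Lxn-/- pools and 11.93 ± 0.14 in WT pools, both high although the gate asked for CD34- cells. The summed linear signal of 10 neutrophil markers (led by Mpo, Elane and Ngp) was 26149 to 41869 in Lxn-/- pools and 20208 to 37129 in WT pools, lowest in WT pool 3. The sum of 9 plasma cell markers (led by Xbp1, Txndc5 and Pou2af1) was 13591 to 14391 in Lxn-/- pools and 17727 to 22792 in WT pools, with all 9 genes lower and not overlapping (background 5.38% of all named probe sets) and all 9 at an unadjusted p under 0.05 by limma (background 2.43%). The sum of 9 B cell markers (led by Ighm, Cd79b and Igll1) was 10806 to 13637 in Lxn-/- pools and 12241 to 18664 in WT pools, and that of 6 erythroid markers (led by Car1, Klf1 and Epor) 11033 to 17396 in Lxn-/- pools and 13427 to 18685 in WT pools. All 9 B cell genes were lower, 4 of them at such a p, and all 6 erythroid genes were lower, 1 of them at such a p, while 7 of the 10 neutrophil genes were higher and 0 had such a p. None of these passed the adjusted threshold. T cell, megakaryocyte and stromal sums overlapped between the genotypes. In such bulk samples, fewer cells of a type and less RNA per cell cannot be told apart.

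MicroRNA loci were brighter where their hairpin held more G and C. Over the 260 microRNA probe sets with a hairpin sequence, the share of G and C bases and the mean log2 level had a Pearson correlation of 0.71 and a Spearman correlation of 0.72, a description across loci that share the same 6 arrays. All 26 loci with a hairpin of 60% or more G and C reached 7.0. The share that reached it was 50.6% (42 of 83) between 50% and 60%, 18.3% (21 of 115) between 40% and 50%, and 2.78% (1 of 36, Mir568) below 40%. The median G and C share was 55.8% in the loci of 7.0 or more and 44.3% in those below. Within the loci of 7.0 or more the correlation was 0.10 (n = 90). The loci of 7.0 or more are thus mostly hairpins rich in G and C.

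**Figure D1:**
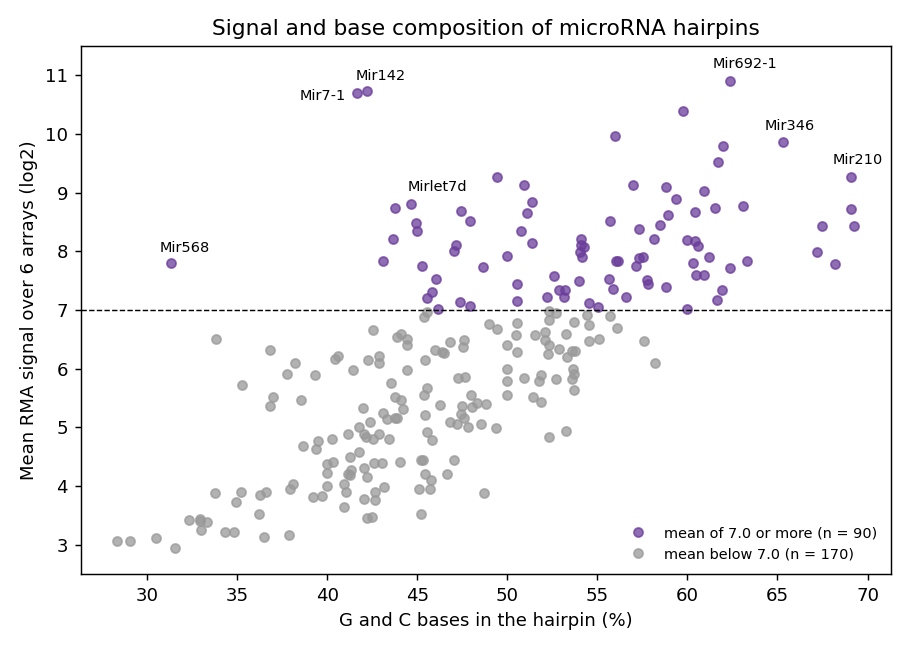
Mean log2 level over 6 arrays (vertical axis) against the share of G and C bases in the hairpin (horizontal axis, percent) for the 260 microRNA probe sets with a hairpin sequence, with the line at 7.0 that chose the loci. Every hairpin of 60% or more G and C lies above the line and 1 of 36 below 40% does, while Mir142 and Mir7-1, at about 42%, are among the brightest.

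Bright loci of both kinds are shown by their hairpins, 1 poor and 2 rich in G and C, printed with both arms in capitals. The Mir142 hairpin (chr11:87756864-87756927, plus strand) holds 42.2% G and C and averaged 10.74, the Mir210 hairpin (chr7:141221384-141221493, minus strand) holds 69.1% and averaged 9.27, and the Mir346 hairpin (chr14:34894609-34894706, plus strand) holds 65.3% and averaged 9.86.
Mir142: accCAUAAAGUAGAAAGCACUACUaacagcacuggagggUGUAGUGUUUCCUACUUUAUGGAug
Mir210: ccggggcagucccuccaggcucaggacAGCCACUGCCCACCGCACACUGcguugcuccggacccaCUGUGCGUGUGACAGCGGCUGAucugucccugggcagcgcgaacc
Mir346: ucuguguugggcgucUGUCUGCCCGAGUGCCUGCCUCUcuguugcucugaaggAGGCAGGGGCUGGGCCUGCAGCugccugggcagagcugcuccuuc
miR-142 is made almost only in blood cells and miR-210 is the classic microRNA of low oxygen. Mir346 lies within Grid1, a glutamate receptor gene of the nervous system, whose own probe set averaged 6.62.

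As a scale for these levels, the 1369 probe sets of odorant and pheromone receptors, which blood cells are not known to use, had a median mean of 5.24 and a 95th percentile of 6.93, and 4.24% of them reached 7.0. Of all named probe sets 68.5% reached 7.0, with a median of 8.25, and of microRNA probe sets 32.8%. The median of the 107 loci was 8.11, and 45 of them lay above the median of all named probe sets.

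The 10 highest loci mixed blood microRNAs with loci of no known role in blood. Mir692-1, the highest, had 11.01, 11.17 and 10.80 in the Lxn-/- pools, against 11.08, 10.62 and 10.75 in the WT pools. The other Mir692 loci shared probe sets with Ftl1, a ferritin chain, at means between 10.98 and 13.10. Mir7-1 had 10.82, 10.78 and 10.89 in the Lxn-/- pools, against 10.82, 10.45 and 10.42 in the WT pools. It lies inside Hnrnpk, an abundant RNA-binding protein gene. Mir505, on the X chromosome, had 11.26, 10.57 and 10.42 in the Lxn-/- pools, against 11.01, 10.30 and 9.53 in the WT pools, the widest spread of the 10, with WT pool 3 far below the rest. Mir598, within Xkr6, had 9.77, 9.86 and 10.14 in the Lxn-/- pools, against 10.00, 9.81 and 9.94 in the WT pools. Mir346 had 9.77, 9.72 and 9.99 in the Lxn-/- pools, against 9.98, 9.80 and 9.89 in the WT pools. Mir667, in the imprinted Dlk1-Dio3 domain, had 9.73, 9.63 and 9.90 in the Lxn-/- pools, against 9.91, 9.72 and 9.84 in the WT pools. The genotypes overlapped in each of these 6 loci. The remaining 4 of the 10, Mir142 and the Mir23a cluster, are described with the blood microRNAs.

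Known blood microRNAs were also found far below 7.0. Of 108 names on a list of microRNAs known from blood cells, 38 were among the 107 loci, 45 lay below 7.0, and 25 had no probe set of their own. The 45 ranged from 3.16 (Mir144, an erythroid microRNA) to 6.98 (Mir99a), and 20 of them lay below the receptor median of 5.24. miR-126 and miR-125b, both well known from stem cells, were among the dim ones, with means of 4.45 for Mir126a, 4.93 for Mir125b-1 and 3.78 for Mir125b-2. Egfl7, the host gene of Mir126a, had 10.44, 9.98 and 10.29 in the Lxn-/- pools, against 10.30, 10.12 and 10.09 in the WT pools. The host transcript of a dim locus was thus bright on the same arrays. Mir146, a brake on inflammatory signalling, averaged 4.01, Mir451a, an erythroid microRNA, 5.05, and Mir29a 4.69. Of the 43 with a hairpin sequence, 34 held less than 50% G and C. A low value here is therefore a low signal of that probe set, not a measure of the mature microRNA.

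At the threshold, the loci just inside were Mir146b with 7.06, 7.06 and 7.16 in Lxn-/-, against 6.99, 7.03 and 6.96 in WT, Mir26a-1 with 7.23, 6.99 and 7.08 in Lxn-/-, against 7.13, 7.02 and 6.69 in WT, and Mir362 with 7.06, 6.97 and 6.93 in Lxn-/-, against 7.22, 6.90 and 7.01 in WT. Just outside were Mir99a with 7.46, 6.89 and 7.17 in Lxn-/-, against 6.88, 6.67 and 6.79 in WT, Mir365-2 with 6.86, 6.91 and 7.04 in Lxn-/-, against 7.14, 7.01 and 6.88 in WT, and Mir124a-2 with 6.92, 6.85 and 7.01 in Lxn-/-, against 6.91, 7.01 and 7.07 in WT. The means of all 6 lay closer together than the pools of Mir26a-1 did.

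Which loci differed between the genotypes was asked next. No locus passed. In limma's fit over all 23410 named probe sets, 0 of the 107 loci had an adjusted p under 0.05, as did 0 of all (0.0%), and the lowest adjusted p was 0.993. At an unadjusted p under 0.05 there were 12 loci (11.2%), beside 3.9% of all named probe sets. These were 10 higher in Lxn-/- (background 1.47%) and 2 lower (background 2.43%). The 10 higher were Mir142, Mir181b-1, Mir20a, Mirlet7d, Mir30e, Mir155, Mir17, Mir19b-1, Mir7-1 and Mir181b-2, and the 2 lower were Mir670 and Mir431. The genotypes did not overlap at all in 9 loci (8.41%), beside 8.98% of all. Of these, 7 were higher (Mir142, Mir181b-1, Mir20a, Mirlet7d, Mir17, Mir665 and Mir146b; background 3.6%) and 2 lower (Mir670 and Mir431; background 5.38%). A mean above that of WT was seen in 60 loci (56.1%, beside 45.5% of all), and the median difference was 0.01, against -0.01 over all named probe sets. Of the 219 microRNA probe sets below 7.0, 135 were higher (61.6%), so this lean was not particular to the loci of 7.0 or more. Of the same 219, 35 did not overlap (16.0%), 28 of them higher and 7 lower. At an unadjusted p under 0.05 by limma there were 15 of them (6.85%), 9 higher and 6 lower. The exact permutation test of 3 against 3 arrays cannot give a p below 0.1.

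The differences spanned -0.24 (Mir568) to 0.47 (Mir505). The 95% confidence interval had a median half-width of 0.23, and 106 of the 107 intervals lay within 1 log2 unit of 0, the exception being Mir505 (-0.36 to 1.30), whose difference was 0.10 without WT pool 3, 0.84 without WT pool 1 and 0.22 without Lxn-/- pool 1. The count of 12 changed with single pools: it was 4 without WT pool 3 and 21 without WT pool 1. Over all 23410 named probe sets, the 914 at an unadjusted p under 0.05 moved the same way, to 681 and 1556. WT pool 3 was the lowest of the 6 arrays for 39 loci (36.4%), beside 20.3% of all named probe sets, and Lxn-/- pool 3 was the highest for 39, beside 17.6% of all named probe sets.

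**Figure D2:**
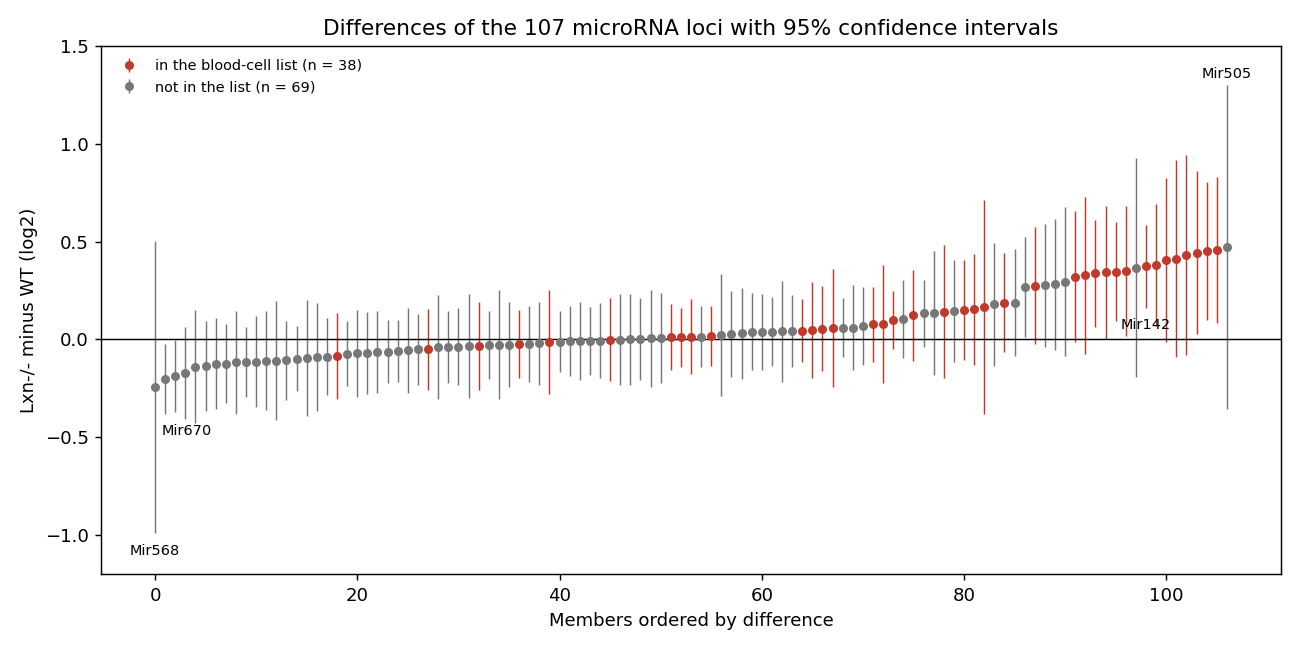
Differences in log2 level, Lxn-/- minus WT, with 95% confidence intervals from limma, for the 107 loci ordered by difference, with loci on the blood list in red and the others in grey. The loci at the right end are mostly on the list, and nearly all intervals stay within 1 log2 unit of 0.

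The loci of known blood microRNAs were counted above and below 7.0. Of the 38 on the blood list with a mean of 7.0 or more, 32 were higher in Lxn-/- (84.2%, beside 45.5% of all named probe sets), with a median difference of 0.15, and 9 had an unadjusted p under 0.05, all of them higher (background 1.47%). Of the 45 on the same list below 7.0, 26 were higher (beside the same 45.5%), with a median of 0.02. Of these 45, 4 had such a p, namely Mirlet7f-1, Mir19a, Mir29a and Mir99a, and all 4 were higher (background 1.47%). Of the 69 loci of 7.0 or more outside the list, 28 were higher (40.6%), with a median of -0.02, and 3 had such a p (4.35%, beside 3.9%). WT pool 3 was the lowest array for 25 of the 38. Without it the median of the 38 was 0.06 and 4 had such a p. The neutrophil marker sum given above was also lowest in WT pool 3, with 6 of its 10 genes lowest there, beside 20.3% of all named probe sets. The B cell, erythroid and stromal sums were highest in that pool, at 18664, 18685 and 3434. The part of any of these marker sums in the differences was not tested.

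The loci were also divided by base composition, a choice made after the data were seen. The 22 loci with less than 50% G and C had a median difference of 0.21, with 16 higher (72.7%, beside 45.5% of all named probe sets) and 9 at an unadjusted p under 0.05 (40.9%, beside 3.9%). These 9 were Mir142, Mir7-1, Mirlet7d, Mir155, Mir17, Mir20a, Mir19b-1, Mir181b-1 and Mir181b-2. All of them but Mir7-1 are also on the blood list, so the divisions by list and by composition largely count the same loci of low p. The 68 with 50% or more had a median of 0.00, with 36 higher (52.9%) and 3 at such a p (4.41%), close to that background. The spread over the 6 arrays was also wider below 50%, with a median SD of 0.23 against 0.12. The deviation of WT pool 3 from the mean of the 6 arrays had a median of -0.25 below 50% and -0.05 above. Without that pool the median difference below 50% was 0.17. In loci below 7.0, which had a median difference of 0.03, the correlation of composition with the difference was -0.14 (n = 170), against -0.36 in the loci of 7.0 or more (n = 90).

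**Figure D3:**
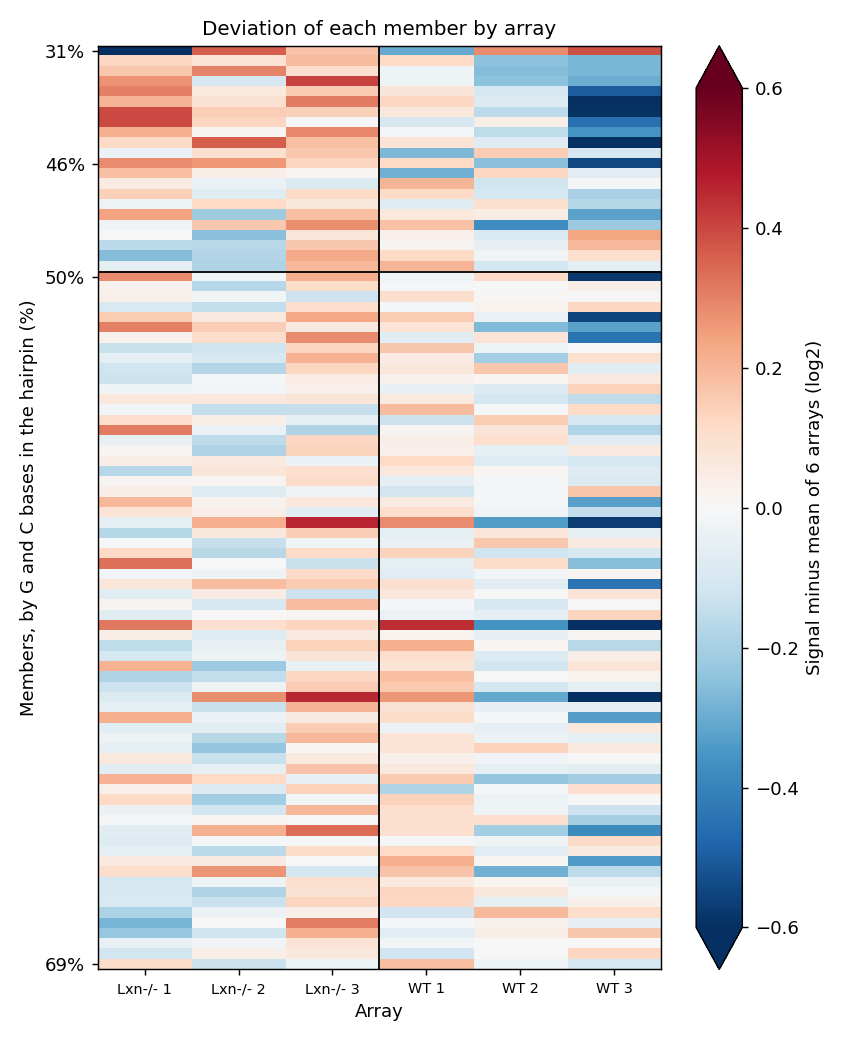
Deviation of each array from the mean of the 6 arrays (colour, log2 units, scale ending at 0.6 in each direction) for the loci with a hairpin sequence, ordered by the share of G and C bases in the hairpin, with Lxn-/- arrays left of WT arrays. WT pool 3 is low for many loci with a share below 50%, where its median deviation was -0.25.

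The Mir17 cluster, known as an oncogenic cluster that promotes proliferation and B cell development, had the largest difference in mean of the 10 groups over all 6 arrays. Its 4 loci averaged 8.21 ± 0.02 in Lxn-/- pools and 7.79 ± 0.35 in WT pools (SD, n = 3 each), a difference of 0.41 (exact permutation test, p = 0.1, the smallest that 3 against 3 allows). The array means were 8.23, 8.19 and 8.19 in the Lxn-/- pools, against 8.10, 7.87 and 7.41 in the WT pools, with no overlap. Mir17 had 7.86, 8.11 and 7.92 in the Lxn-/- pools, against 7.83, 7.67 and 7.08 in the WT pools. Mir18 had 8.94, 8.83 and 9.05 in the Lxn-/- pools, against 8.86, 8.65 and 8.08 in the WT pools. WT pool 3 was the lowest array in both, and Mir18 overlapped through WT pool 1. Mir20a had 7.60, 7.58 and 7.44 in the Lxn-/- pools, against 7.43, 7.06 and 6.77 in the WT pools. Mir19b-1 had 8.51, 8.27 and 8.36 in the Lxn-/- pools, against 8.28, 8.10 and 7.71 in the WT pools. Mir17 and Mir20a did not overlap, and Mir19b-1 overlapped through WT pool 1. The differences were 0.44 for Mir17 (SE 0.18, unadjusted p = 0.0398), 0.41 for Mir18 (SE 0.18, unadjusted p = 0.0551), 0.45 for Mir20a (SE 0.15, unadjusted p = 0.0187) and 0.35 for Mir19b-1 (SE 0.14, unadjusted p = 0.0408), each with a limma adjusted p of 0.993. All 4 were lowest in WT pool 3, and without that pool the cluster difference was 0.22, just below the 0.23 of the Mir23a cluster. The single differences were then 0.22, 0.18, 0.29 and 0.19 for Mir17, Mir18, Mir20a and Mir19b-1. Mir19a, of the same cluster and below 7.0, had 6.83, 6.87 and 6.80 in the Lxn-/- pools, against 6.33, 6.53 and 5.92 in the WT pools. The probe set shared by Mir92-1 and the host transcript had 9.16, 8.86 and 9.06 in the Lxn-/- pools, against 9.28, 8.54 and 8.14 in the WT pools. It overlapped, with a difference of 0.37 (SE 0.25). Mir17hg, the host transcript itself, had 8.56, 8.30 and 8.30 in the Lxn-/- pools, against 8.71, 8.46 and 8.00 in the WT pools, with a difference within 0.01 of 0 (SE 0.17, unadjusted p = 0.981), and it too was lowest in WT pool 3.

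**Figure D4:**
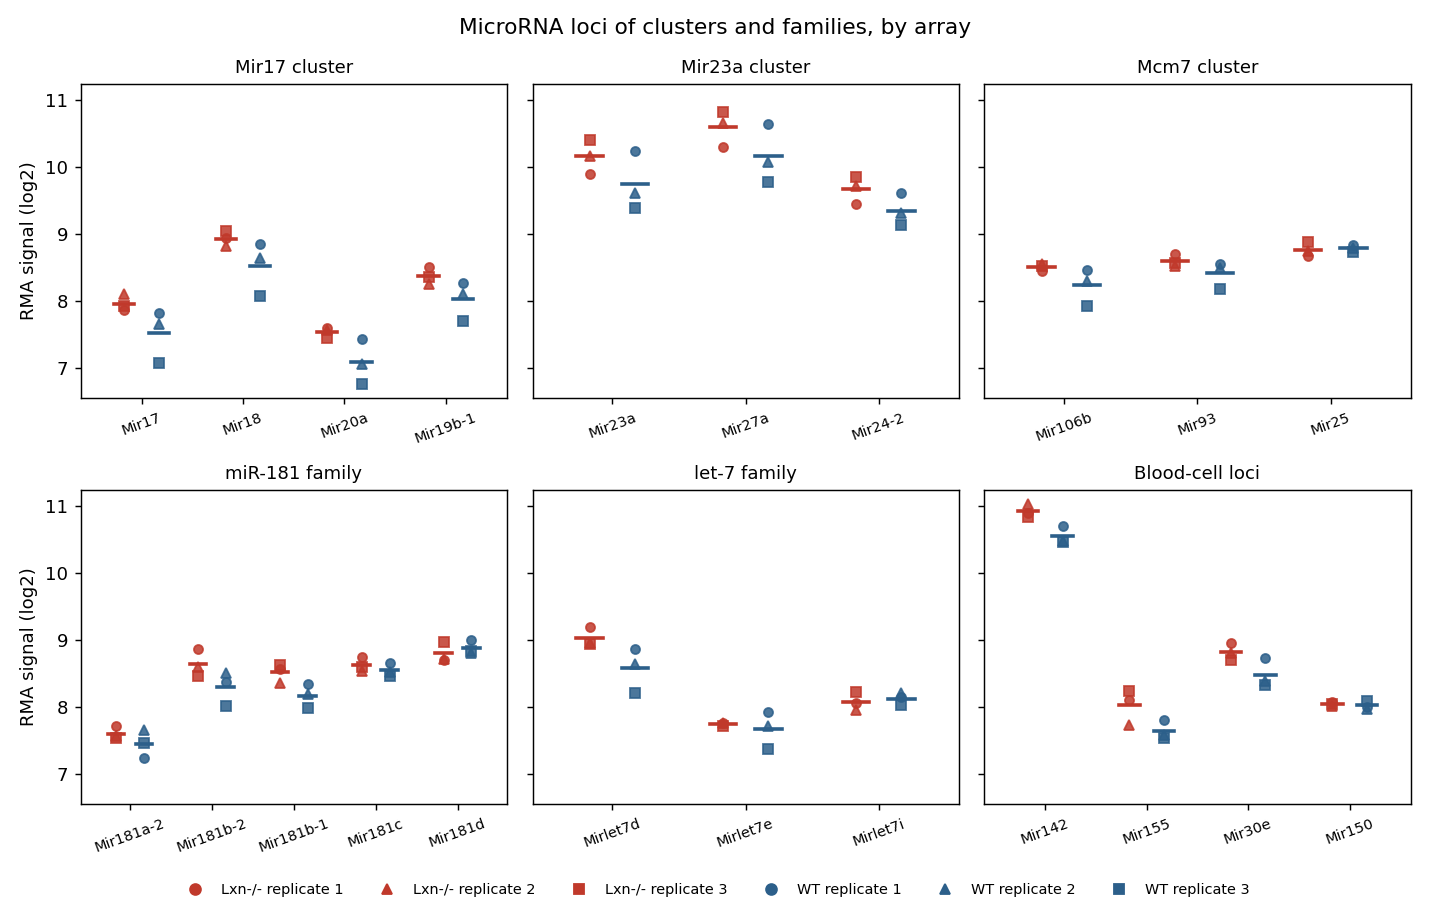
Log2 signal (vertical axis) of single loci on each array, in panels by cluster, family and other blood loci, with Lxn-/- arrays (red) left of WT arrays (blue), 1 symbol shape per replicate number and a bar at the mean of 3 arrays. Mir17, Mir20a, Mir181b-1, Mirlet7d and Mir142 do not overlap between the genotypes, and WT replicate 3 is the lowest array in all 4 loci of the Mir17 cluster and all 3 of the Mir23a cluster.

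The Mir23a cluster acts in myeloid against B cell development. Its 3 loci were the brightest group, at 10.15 ± 0.24 in Lxn-/- pools and 9.76 ± 0.38 in WT pools (SD, n = 3 each). The difference of 0.39 had an exact permutation p of 0.2, and without WT pool 3 it was 0.23. Mir23a had 9.90, 10.17 and 10.42 in the Lxn-/- pools, against 10.24, 9.62 and 9.39 in the WT pools. Mir27a had 10.30, 10.66 and 10.83 in the Lxn-/- pools, against 10.65, 10.08 and 9.78 in the WT pools. Mir24-2 had 9.45, 9.73 and 9.85 in the Lxn-/- pools, against 9.62, 9.31 and 9.14 in the WT pools. In all 3 loci WT pool 1 lay within the Lxn-/- values and WT pool 3 was the lowest array. The differences of Mir23a, Mir27a and Mir24-2 were 0.41 (SE 0.22), 0.43 (SE 0.22) and 0.32 (SE 0.14), with a limma adjusted p of 0.993 each. They were 0.23, 0.23 and 0.21 without WT pool 3, and 0.66 and 0.67 for Mir23a and Mir27a without WT pool 1.

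The Mcm7 cluster lies within Mcm7, a subunit of the replicative helicase, and shares a seed with the Mir17 cluster. It averaged 8.63 ± 0.03 in Lxn-/- pools and 8.48 ± 0.18 in WT pools (SD, n = 3 each; difference 0.15, exact permutation p = 0.3), and the difference was 0.05 without WT pool 3. Mir106b had 8.45, 8.56 and 8.53 in the Lxn-/- pools, against 8.47, 8.31 and 7.93 in the WT pools. Mir93 had 8.71, 8.53 and 8.58 in the Lxn-/- pools, against 8.56, 8.50 and 8.18 in the WT pools. Mir25, which shares its seed AUUGCAC with Mir92b and not with the other two, had 8.67, 8.75 and 8.88 in the Lxn-/- pools, against 8.84, 8.80 and 8.74 in the WT pools. The genotypes overlapped in each. Mcm7 itself had 12.05, 12.17 and 12.02 in the Lxn-/- pools, against 11.96, 12.27 and 12.26 in the WT pools, a difference of -0.08 (SE 0.10). Over the 4 loci with the seed AAAGUGC, Mir17, Mir20a, Mir93 and Mir106b, the differences were 0.19 to 0.45, and all 4 were positive. Without WT pool 3, Mir93 and Mir106b were at 0.07 and 0.12.

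The miR-181 family, which acts in T and B cell development, held 5 loci with the seed ACAUUCA, of which 4 were higher in Lxn-/-, from -0.08 to 0.35. Mir181b-1 had 8.57, 8.36 and 8.63 in the Lxn-/- pools, against 8.34, 8.20 and 7.99 in the WT pools, with no overlap, a difference of 0.35 (limma, SE 0.11, unadjusted p = 0.0137, adjusted p = 0.993). Mir181b-2, which gives the same mature sequence from within Nr6a1os, had 8.88, 8.61 and 8.47 in the Lxn-/- pools, against 8.38, 8.51 and 8.02 in the WT pools, a difference of 0.34 (SE 0.15, unadjusted p = 0.0483). Both loci of miR-181b-5p had a higher mean in Lxn-/-, and neither passed. Without WT pool 3 the differences were 0.25 for Mir181b-1 and 0.20 for Mir181b-2. Mir181a-2, beside it, had 7.71, 7.57 and 7.54 in the Lxn-/- pools, against 7.24, 7.66 and 7.46 in the WT pools. Mir181c had 8.75, 8.54 and 8.60 in the Lxn-/- pools, against 8.66, 8.53 and 8.47 in the WT pools. Mir181d, its neighbour on chromosome 8, had 8.71, 8.73 and 8.98 in the Lxn-/- pools, against 9.01, 8.81 and 8.84 in the WT pools. The genotypes overlapped in these 3. Mir181a-1, on chromosome 1 beside Mir181b-1, was below 7.0, at a mean of 4.81.

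The let-7 family marks adult against fetal blood and restrains Hmga2. It had 3 loci with the seed GAGGUAG. Mirlet7d had 9.20, 8.96 and 8.95 in the Lxn-/- pools, against 8.87, 8.65 and 8.21 in the WT pools, with no overlap, a difference of 0.46 (limma, SE 0.16, unadjusted p = 0.0221, adjusted p = 0.993). Mirlet7e had 7.77, 7.77 and 7.71 in the Lxn-/- pools, against 7.93, 7.72 and 7.37 in the WT pools. Mirlet7i had 8.06, 7.95 and 8.23 in the Lxn-/- pools, against 8.15, 8.21 and 8.04 in the WT pools. Only Mirlet7d of the 3 separated the genotypes, and its difference was 0.27 without WT pool 3. On the same chromosome as Mirlet7d, Mirlet7f-1 and Mirlet7a-1 lay below 7.0. Mirlet7f-1 had 5.95, 6.22 and 6.14 in the Lxn-/- pools, against 5.65, 5.66 and 5.73 in the WT pools, also with no overlap, and Mirlet7a-1 had 6.60, 6.76 and 6.56 in the Lxn-/- pools, against 6.69, 6.73 and 6.58 in the WT pools, overlapping. Mirlet7e shares the Spaca6 transcript with Mir125a, a regulator of stem cell survival, and Mir99b. Mir125a had 7.74, 7.75 and 7.96 in the Lxn-/- pools, against 7.77, 7.76 and 7.87 in the WT pools. Mir99b had 8.31, 8.14 and 8.29 in the Lxn-/- pools, against 8.19, 8.23 and 8.28 in the WT pools. The 3 loci averaged 7.94 ± 0.05 in Lxn-/- pools and 7.90 ± 0.06 in WT pools (SD, n = 3 each), a difference of 0.03 (exact permutation p = 0.5).

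Other loci of blood microRNAs followed. Mir142 had the lowest unadjusted p of the 107 loci. It had 10.90, 11.04 and 10.84 in the Lxn-/- pools, against 10.71, 10.48 and 10.47 in the WT pools, with no overlap, a difference of 0.37 (limma, SE 0.09, 95% interval 0.16 to 0.58, unadjusted p = 0.00361, adjusted p = 0.993). Mir155, induced in activated lymphoid and myeloid cells, had 8.11, 7.74 and 8.24 in the Lxn-/- pools, against 7.81, 7.59 and 7.54 in the WT pools, a difference of 0.38 (SE 0.14, unadjusted p = 0.0235). Its genotypes overlapped in WT pool 1. Mir30e, within Nfyc, had 8.96, 8.80 and 8.71 in the Lxn-/- pools, against 8.74, 8.39 and 8.33 in the WT pools, a difference of 0.34 (SE 0.12, unadjusted p = 0.0223). Both Nfyc probe sets were lower in Lxn-/- by less than 1 SE, at -0.01 and -0.08. Mir7-1, whose values are given above, differed by 0.27 (SE 0.11, unadjusted p = 0.041), and the first Hnrnpk probe set by 0.02.

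The other blood microRNAs overlapped between the genotypes, except Mir146b. Mir128-1, within R3hdm1, had 8.21, 7.91 and 8.14 in the Lxn-/- pools, against 7.89, 8.04 and 7.34 in the WT pools. Mir128-2, its copy within Arpp21, had 7.34, 7.05 and 7.34 in the Lxn-/- pools, against 7.36, 7.10 and 7.13 in the WT pools. Both give miR-128-3p. Mir15a, a brake on BCL2 in the Dleu2 locus, had 8.91, 8.32 and 8.49 in the Lxn-/- pools, against 8.86, 8.45 and 7.92 in the WT pools, and Dleu2 itself averaged 3.57, so that locus and host gave very unlike signals. Mir150, which restrains Myb in lymphocytes, had 8.07, 8.02 and 8.04 in the Lxn-/- pools, against 8.01, 7.97 and 8.10 in the WT pools. Mir196b, in the Hoxa cluster, had 8.15, 7.93 and 8.12 in the Lxn-/- pools, against 8.12, 7.90 and 7.81 in the WT pools. WT pool 3 was the lowest for Mir15a and Mir196b. Mir221, which targets Kit, had 7.38, 6.92 and 7.32 in the Lxn-/- pools, against 7.20, 7.18 and 6.82 in the WT pools. Mir210 had 9.22, 9.25 and 9.35 in the Lxn-/- pools, against 9.25, 9.26 and 9.27 in the WT pools. Mir212, linked to ageing of stem cells, had 8.54, 8.30 and 8.40 in the Lxn-/- pools, against 8.61, 8.40 and 8.32 in the WT pools. Both of these are rich in G and C, and of the pair Mir210 had the narrower spread. Mir30d had 7.88, 7.67 and 7.68 in the Lxn-/- pools, against 7.96, 7.76 and 7.54 in the WT pools. Mir152, within Copz2, had 7.17, 7.19 and 7.18 in the Lxn-/- pools, against 7.27, 7.29 and 6.98 in the WT pools. Mir26a-1, within Ctdspl, has its values at the threshold above.

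Mir191 and Mir425 lie in Dalrd3. Mir191 had 8.09, 8.02 and 7.93 in the Lxn-/- pools, against 7.85, 8.14 and 7.88 in the WT pools. Mir425 had 8.52, 8.18 and 8.04 in the Lxn-/- pools, against 8.23, 8.30 and 8.04 in the WT pools. The pair differed by 0.06 (exact permutation p = 0.6). Mir195a and Mir497, which share the seed AGCAGCA with Mir15a and are known as brakes on the cell cycle, form a pair on chromosome 11. Mir195a had 8.13, 8.14 and 8.05 in the Lxn-/- pools, against 8.20, 8.01 and 7.98 in the WT pools. Mir497 had 7.26, 7.33 and 7.33 in the Lxn-/- pools, against 7.33, 7.32 and 7.45 in the WT pools. Their genotypes overlapped, with a pair difference of -0.01. Mir188 and Mir362, in Clcn5 on the X chromosome, were the dimmest pair. Mir188 had 7.44, 7.40 and 7.29 in the Lxn-/- pools, against 7.46, 7.33 and 7.21 in the WT pools, and the pair differed by -0.01.

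The Dlk1-Dio3 domain on chromosome 12 is an imprinted region whose noncoding transcripts Meg3, Rian and Mirg carry many microRNAs, expressed from the maternal copy and linked to stem cell quiescence. Its 13 loci formed the group with the most members. They averaged 8.10 ± 0.12 in Lxn-/- pools and 8.14 ± 0.05 in WT pools (SD, n = 3 each), a difference of -0.03 (exact permutation p = 0.6), with 5 of 13 higher. Mir127, antisense to Rtl1 and the only one of the 13 on the blood list, had 7.73, 7.72 and 7.86 in the Lxn-/- pools, against 7.68, 7.73 and 7.76 in the WT pools. Mir431, also antisense to Rtl1, had 8.13, 7.95 and 8.20 in the Lxn-/- pools, against 8.27, 8.32 and 8.24 in the WT pools, with no overlap, a difference of -0.19 (limma, SE 0.08, unadjusted p = 0.0479, adjusted p = 0.993), and of -0.12 without Lxn-/- pool 2. Mir665 had 7.40, 7.40 and 7.41 in the Lxn-/- pools, against 7.39, 7.23 and 7.18 in the WT pools, with WT pool 1 only just below the Lxn-/- values. These 2 were the only loci of the domain whose genotypes separated, and they did so in opposite directions.

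The other loci of the domain overlapped. Mir341 had 8.77, 8.87 and 9.05 in the Lxn-/- pools, against 9.06, 8.79 and 8.85 in the WT pools. Mir673 had 8.70, 8.62 and 8.93 in the Lxn-/- pools, against 8.83, 8.71 and 8.61 in the WT pools. Mir666 had 8.69, 8.63 and 8.69 in the Lxn-/- pools, against 8.84, 8.63 and 8.57 in the WT pools. These were the brightest after Mir667. Mir134 had 8.03, 8.05 and 8.27 in the Lxn-/- pools, against 8.16, 8.04 and 8.03 in the WT pools. Mir540 had 8.02, 7.69 and 7.88 in the Lxn-/- pools, against 8.03, 7.87 and 7.90 in the WT pools. Mir668 had 7.67, 7.91 and 7.99 in the Lxn-/- pools, against 7.78, 7.92 and 7.78 in the WT pools. No pool was low throughout these loci, unlike the Mir17 and Mir23a clusters. Mir679 had 7.47, 7.56 and 7.96 in the Lxn-/- pools, against 7.85, 7.72 and 7.83 in the WT pools. Mir337 had 7.46, 7.41 and 7.71 in the Lxn-/- pools, against 7.65, 7.75 and 7.52 in the WT pools. Mir485 had 6.90, 6.89 and 7.22 in the Lxn-/- pools, against 7.08, 7.01 and 7.26 in the WT pools. In these 3, and in every other locus of the domain except Mir540, Lxn-/- pool 3 was the highest of the Lxn-/- arrays. The mean of the domain was highest of all arrays in that pool, at 8.24. Of the host transcripts, Meg3 averaged 8.60, with a difference of 0.02 (SE 0.12), and Rian 6.02, with -0.10 (SE 0.12). Rtl1, to which Mir127 and Mir431 are antisense, averaged 7.11, with a difference of -0.17 (SE 0.08).

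On the lower side, no more than 2 loci separated the genotypes, Mir431 and Mir670. Mir670 had 7.49, 7.36 and 7.36 in the Lxn-/- pools, against 7.69, 7.50 and 7.62 in the WT pools, a difference of -0.20 (limma, SE 0.08, unadjusted p = 0.0326, adjusted p = 0.993). Its host transcript Mir670hg averaged 6.43, with a difference of 0.02. Mir551b, within Egfem1, had 7.29, 6.92 and 7.22 in the Lxn-/- pools, against 7.26, 7.30 and 7.39 in the WT pools, a difference of -0.17 (SE 0.10). Mir338, within the kinase gene Aatk, had 7.83, 7.70 and 7.81 in the Lxn-/- pools, against 7.79, 8.00 and 7.89 in the WT pools, a difference of -0.11 (SE 0.08). Mir296 had 7.73, 7.65 and 7.92 in the Lxn-/- pools, against 7.96, 7.89 and 7.82 in the WT pools, a difference of -0.12 (SE 0.09). These last 3 overlapped. Without Lxn-/- pool 2, the differences were -0.06 for Mir551b, -0.07 for Mir338 and -0.07 for Mir296. That of Mir338 was -0.06 without WT pool 2, and that of Mir296 was -0.20 without Lxn-/- pool 3. The largest negative difference, that of Mir568, was -0.24 with a wide interval of -0.99 to 0.51, and it came from 1 low array, Lxn-/- pool 1, without which it was 0.15. It was -0.49 without Lxn-/- pool 2, -0.39 without Lxn-/- pool 3, -0.45 without WT pool 1, -0.16 without WT pool 2 and -0.11 without WT pool 3.

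The 44 loci not named by these criteria had means of 7.12 to 9.43 and differences of -0.24 to 0.37. Of them, 18 were higher in Lxn-/- (beside 45.5% of all named probe sets) and 0 had an unadjusted p under 0.05 (background 3.9%). The criteria had already taken the loci of lowest p, so this 0 follows in part from the choice.

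Host genes were compared with the loci inside or beside them. A host was measured for 60 of the 107 loci, through 44 probe sets of 41 genes, and 32 of these 60 loci are known to lie on the strand of the host. Rtl1, counted among the 41, overlaps its loci without a matched strand and is antisense to Mir127 and Mir431. Of the 44 host probe sets, 15 were higher in Lxn-/- (beside 45.5% of all named probe sets), with a median difference of -0.02. Only 1 of them had an unadjusted p under 0.05 (background 3.9%). That was Arpp21, which averaged 7.70 ± 0.15 in Lxn-/- pools and 7.95 ± 0.15 in WT pools (SD, n = 3 each; difference -0.25, limma unadjusted p = 0.0433, adjusted p = 0.993), while its microRNA Mir128-2 overlapped. R3hdm1, the host of Mir128-1, differed by -0.02 (SE 0.07), Spaca6 by 0.07 (SE 0.07), and Dalrd3 by -0.03 (SE 0.08). The 4 loci of the Mir17 cluster thus lay higher beside a Mir17hg probe set with a difference near 0, although both were lowest in WT pool 3. The probe set shared by Mir92-1 and that host transcript, not counted among the 44, differed by 0.37 (SE 0.25). Whether locus and host differ from each other in response was not tested.

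None of the genes that make microRNAs passed the test. Of 32 genes for nuclear processing, cytoplasmic processing and turnover, 31 were measured, and 0 passed in either direction. At an unadjusted p under 0.05 by limma there were 0 (background 3.9%). Of the 31, 22 were higher, beside 45.5% of all named probe sets, with a median difference of 0.04. These were 5 of 9 nuclear, 11 of 12 cytoplasmic and 6 of 10 turnover genes. Drosha averaged 10.14 ± 0.05 in Lxn-/- pools and 10.18 ± 0.04 in WT pools, and Dgcr8 10.22 ± 0.05 in Lxn-/- pools and 10.25 ± 0.05 in WT pools (SD, n = 3 each). Xpo5, the exporter and the host of Mir693, averaged 10.64 ± 0.07 in Lxn-/- pools and 10.65 ± 0.09 in WT pools. These are the steps that most hairpins pass. Dicer1 averaged 11.07 ± 0.04 in Lxn-/- pools and 11.05 ± 0.05 in WT pools, and Ago2 11.56 ± 0.15 in Lxn-/- pools and 11.52 ± 0.11 in WT pools. Lin28b, the fetal inhibitor of let-7 processing, averaged 5.83 ± 0.07 in Lxn-/- pools and 5.93 ± 0.13 in WT pools, below 7.0 in both. The lowest unadjusted p of these genes belonged to Zc3h12a, a nuclease that cuts precursors, with 9.93 ± 0.12 in Lxn-/- pools and 9.53 ± 0.39 in WT pools (difference 0.39, limma unadjusted p = 0.0556, adjusted p = 0.993). Srsf3, which helps Drosha recognise hairpins, differed by 0.13 (SE 0.07), and Ago3 by 0.13 (SE 0.09). The genotypes did not overlap in Srsf3, the only 1 of the 31 genes of which this held (background 8.98%).

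Textbook targets of these microRNAs were close to evenly split in sign. Of 23, 20 were measured, and 0 passed by limma, with 1 at an unadjusted p under 0.05 (background 3.9%). Of the 20, 11 were higher, beside 45.5% of all named probe sets, with a median difference of 0.01. Hmga2, the target of let-7, averaged 10.01 ± 0.06 in Lxn-/- pools and 10.03 ± 0.08 in WT pools (SD, n = 3 each). Trp53inp1, a target of miR-155 and miR-17 that promotes cell death, had 11.42, 11.33 and 11.49 in the Lxn-/- pools, against 11.70, 11.53 and 11.58 in the WT pools, a difference of -0.19 (limma, SE 0.08, unadjusted p = 0.0384, adjusted p = 0.993). Bak1, a death effector targeted by miR-125, differed by -0.13 (SE 0.08), Dnmt3a, the DNA methyltransferase targeted by miR-29, by 0.12 (SE 0.07), and Cebpb, a myeloid factor targeted by miR-155, by 0.17 (SE 0.13). None of these differences passed the test.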

How the data were processed

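The authors deposited RMA-normalized values on a log2 scale, per the labels' design text, and Partek 6.0 also stands in the submitters' processing notes. No source used here states the genome build, the background step or the probe set version. Array medians lay between 7.77 and 7.91, and 6 arrays set the limit of precision. GEO's platform annotation gave 21789 probe sets 1 symbol and 1621 several, and 12147 were unnamed here. MicroRNA loci were chosen by their mean over all 6 arrays, and differences were Lxn-/- minus WT, tested two-sided with limma 3.58.1 (lmFit and eBayes, R 4.3.3) over all 23410 named probe sets adjusted by Benjamini-Hochberg, at a threshold of 0.05. Errors are SD over 3 arrays or limma's SE. Means of groups of loci were set against each other by exact permutation, two-sided. The loci and all lists were chosen with earlier results of these data known. Loci were grouped by shared host gene or cluster within 10 kb, apart from the imprinted domain. Sequences, G and C shares, strands and host genes came from RefSeq tables of GRCm38.p6, matched by Entrez gene identifier.

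Values of all 6 arrays were given for the 10 highest loci, the 5 of lowest unadjusted p in each direction, all loci in groups, all loci on the list of blood microRNAs, and the 3 on each side of the threshold. Host genes, 7 processing genes and targets, up to 4 genes of lowest p per list and up to 3 of highest mean per marker list were also open to naming. On simulated data with 200 of 23410 probe sets changed 1.5-fold, 2-fold and 4-fold, the limma step recovered 87%, 99% and 100% of them. False calls were 8, 10 and 12. The simulated noise was independent between probe sets and held no variation shared by a pool. These rates therefore check the code and do not tell which changes could be found in these arrays. Other settings were an intensity trend, array weights, quantile and common-median scaling, a filter at 7.0, all probe sets, the replicate number as a block, other thresholds on the mean, and each array left out.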

Additional observations from a re-analysis of the deposited data

How the results depend on the processing

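No locus passed the adjusted threshold under any of the alternatives run. The 12 loci at an unadjusted p under 0.05 became 19 with array weights and 7 when all probe sets of the table were tested, and 4 to 21 with 1 array left out. The 9 loci without overlap became 12 to 31 with 1 array left out, where smaller groups separate more easily. Among all 23410 named probe sets, the 843 higher without overlap then became 1407 to 2393. The 1259 lower without overlap became 2054 to 3229. Over all named probe sets, the 914 at an unadjusted p under 0.05 became 1807 with array weights and 1597 over all probe sets. That count was 611 to 1556 with 1 array left out. The split of 344 higher and 570 lower became 217 and 804 under quantile scaling and 171 and 858 with a common median per array, which moved the median of all named probe sets to -0.06. The median difference of the 107 loci, 0.01, was -0.03 under both scalings, which shift nearly all probe sets together, beside medians over all named probe sets of -0.03 and -0.06. The loci higher in Lxn-/- were then 43.0% and 40.2%, beside 36.5% and 27.2% of all. Without Lxn-/- replicate 3 the median was -0.02, with 42.1% of the loci higher, beside -0.01 and 45.7% over all. For 25 single loci, 4 of the settings leave the difference identical by construction, and under the other 9 the sign turned in 2 of 225 values. With 1 array left out, Mir25 ranged from -0.0796 (without Lxn-/- replicate 3) to 0.0245 (without Lxn-/- replicate 1), and Mir568 from -0.4856 (without Lxn-/- replicate 2) to 0.1472 (without Lxn-/- replicate 1). Settings for the loci grouped by composition and by the blood list were added after the data were seen, and the median of the blood list ran from 0.06 to 0.21.

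With the replicate number as a block (replicate block), 0 loci passed, and 12 had an unadjusted p under 0.05, as without it. Over all named probe sets 492 were higher and 681 lower at such a p. Deviations of samples with the same number correlated at 0.37, -0.07 and -0.08, beside -0.34 to 0.36 for samples of unlike number. No pairing is stated for the samples, and these correlations cannot settle whether there was any.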
